A study of Mus musculus with 12 samples.

Results

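The 10 genes described here are used as signs of a mesenchymal or perivascular cell state, and were followed in mouse vascular tumor cells that lost 1 of 3 autophagy genes. They are 10 of the 14851 genes listed with a level in every library. Mgp, Thy1 and Chrdl1 were picked because their levels rose strongly in these same knockout libraries, so their values are described without a test. The other 7 (Acta2, Tagln, Cdh2, Vim, Fn1, Snai2 and Twist1) were chosen by name. Of these 7, 6 passed the filter on low levels and were tested, while Twist1 had no reads in any library.

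The cells are 562 cells, a line that became immortal on its own and was grown out of vascular tumors of C57BL/6 mice in which a tamoxifen-induced Scl-Cre had deleted Tsc1 in the endothelium. They model lymphangiosarcoma, and the labels give the tissue as lymphatic endothelial cells. There were 4 groups of 3 libraries. The control cells are marked wildtype in the labels, and the cells named Fip200 KO, Atg5 KO or Atg7 KO were made from the same line with CRISPR-Cas9 and sgRNAs delivered by lentivirus, so by the study's account all 4 groups carry the Tsc1 deletion. Tsc1 RNA, counted over the whole gene, was at 2.59 to 7.01 RPKM in every library, which does not check the deletion. FIP200, encoded by Rb1cc1, acts in the complex that starts autophagy, while ATG5 and ATG7 act in the attachment of LC3 to membranes. The labels do not say which sgRNA each library came from. The study calls the libraries independent replicates and its experiments biological replicates in general. Whether these came from separate cultures or clones was not stated, so the p-values measure the spread between these libraries only.

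In epithelial-mesenchymal and endothelial-mesenchymal transition, cells lower their junction genes and take up an actin cytoskeleton, a matrix and a migratory habit like those of fibroblasts or smooth muscle. Transcription factors of the Snail, Twist and Zeb families drive the change, and TGF-beta signaling is a known trigger in endothelial cells. Contractile genes such as Acta2 and Tagln are read out late in the process, and vimentin and fibronectin are also made by ordinary cultured endothelial cells.

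Levels are given in RPKM, reads scaled by the length of the gene and the reads of the library, which allows levels of different genes to be compared. Between 17264989 and 23627965 reads per library fell on the listed genes. The libraries carry names that start with FY, JG or Yang, which the labels do not explain. The prefix FY is on control replicate 1 and all Fip200 KO libraries, JG on control replicates 2 and 3 and Atg5 KO replicates 1 and 2, and Yang on Atg5 KO replicate 3 and all Atg7 KO libraries. No control library has the prefix Yang, so the prefix and the knockout cannot be told apart within the 6 libraries of the Atg7 KO comparison. Over 12233 genes, 4 of the 12 libraries correlated more with a library of another group than with any of their own. Fip200 KO replicate 3 had at most 0.908 within its group and 0.954 with Atg5 KO replicate 1, and Fip200 KO replicate 2 at most 0.946 and 0.973 with Atg7 KO replicate 3. Atg7 KO replicate 2 had at most 0.940 and 0.957 with Atg5 KO replicate 1, and Atg5 KO replicate 3 at most 0.970 and 0.974 with Atg7 KO replicate 1. Atg7 RNA was at 18.4, 25.0 and 19.8 RPKM in control and at 5.40, 2.64 and 8.34 RPKM in Atg7 KO libraries. It was also below every control library in the Atg5 KO libraries, at 9.99, 11.9 and 9.94 RPKM, and in Fip200 KO replicates 2 and 3, at 12.4 and 8.23 RPKM, so a low level is not particular to the Atg7 KO libraries. Rb1cc1 and Atg5 RNA overlapped between control and their own knockout. Cas9 edits need not lower the RNA, and these levels do not check the labels.

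The endothelial origin was visible in every library. Pecam1, an endothelial adhesion molecule, was at 265 to 539 RPKM over all libraries, and Cdh5, the cadherin of endothelial junctions, at 116 to 805 RPKM. Of the 22 pan-endothelial markers listed, 21 reached 0.5 RPKM in at least 1 control library and 20 in each knockout group. On that list Vwf was at most 0.809 and Sox17 at most 0.128 RPKM, and Cldn5 ran from 0.143 to 67.6 RPKM. Of the lymphatic markers, Lyve1 reached 60.6 RPKM or more, Pdpn 51.5 or more and Flt4 31.7 or more in all 12 libraries, whereas Prox1, the factor that sets lymphatic identity, lay between 0.0366 and 5.79 RPKM. Of the genes of other cell types, some were near 0 and others were not. Rgs5, a pericyte gene, was at most 0.0108 RPKM, Myh11, the smooth muscle myosin, at most 0.0533 RPKM, and Col1a1, the fibrillar collagen chain of fibroblasts, at most 0.476 RPKM. On the same lists Mcam, which pericytes and endothelial cells share, was at 0.687 to 29.2, Ndufa4l2 at 0 to 36.5, the collagen gene Col3a1 at 0.158 to 143, and Cd68, a macrophage gene, at 6.95 to 263 RPKM, the last in Fip200 KO replicate 1. Control replicate 2 stood apart in fibroblast and pericyte genes, with Dcn at 56.9, Pdgfra at 9.02 and Pdgfrb at 4.19 RPKM, and control replicate 3 followed with Dcn at 15.2 and Pdgfra at 2.26 RPKM. In control replicate 1 and in all 9 knockout libraries Dcn was at most 0.989 RPKM. These 3 genes were singled out after their values were seen. Whether all libraries came from the same stock of cells was not tested.

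Mgp encodes matrix Gla protein, a secreted inhibitor of calcification that also binds BMP ligands. It was at 0.0855, 4.59 and 0.164 RPKM in control replicates 1, 2 and 3, at 0.491, 0.564 and 0.665 in Fip200 KO, at 0.0839, 0 and 82.7 in Atg5 KO, and at 69.7, 73.4 and 73.1 in Atg7 KO libraries. In reads these are 1, 67 and 2 in control, 6, 7 and 9 for Fip200 KO, 1, 0 and 1103 for Atg5 KO, while the Atg7 KO libraries held 743, 826 and 920. The gene was thus high in 4 libraries and low in the other 8, and the 4 are all those with the prefix Yang. Within Atg5 KO cells, the 2 libraries with the prefix JG held 1 read between them, and the library with the prefix Yang held 99.9% of the group's summed level.

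The log2 fold change of Mgp, on the scale of RPKM plus 0.5, was −0.23 in Fip200 KO and 5.85 in Atg7 KO cells. In Atg5 KO cells the gene did not pass the filter of at least 0.5 RPKM in 3 of the 6 libraries. When a fit of all 12 libraries also held a term for the prefix, the value in Atg7 KO cells turned to −1.97 and that in Fip200 KO cells to 0.87. In that fit each value hangs on 1 library, since Atg7 KO is linked to control only through Atg5 KO replicate 3, the other Yang library, and Fip200 KO is set against control replicate 1, the only FY control. These values are therefore no corrected effects.

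Chrdl1 encodes chordin-like 1, a secreted antagonist of BMP4. It was at 0.621, 0.0486 and 0.00726 RPKM in control, at 13.1, 22.4 and 0.0131 in Fip200 KO, at 14.04, 12.4 and 24.9 in Atg5 KO, and at 17.9, 0.0157 and 13.3 in Atg7 KO libraries. The reads ran to 82, 8 and 1 in control, 1814, 3144 and 2 for Fip200 KO, 1889, 1783 and 3752 for Atg5 KO, while the Atg7 KO libraries held 2155, 2 and 1888. In 7 of 9 knockout libraries the level lay above every control library, and the 2 that did not are Fip200 KO replicate 3 and Atg7 KO replicate 2. Both are among the 4 libraries more alike to another group, as is Fip200 KO replicate 2, at 22.4 RPKM.

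High Chrdl1 was found under every prefix. Among the JG libraries the 2 control values were at most 0.0486 RPKM and the 2 Atg5 KO values at least 12.4 RPKM. Against control, log2 fold changes of 3.002 for Fip200 KO, 4.63 for Atg5 KO and 2.90 for Atg7 KO were found, or of 2.28, 4.70 and 2.38 with the prefix as a term. Without Fip200 KO replicate 3 the first value was 4.70, and without Atg7 KO replicate 2 the last was 4.55. Xist, the RNA that silences 1 X chromosome and so bears on X-linked genes such as Chrdl1, was singled out after its values were seen. It was at 12.7, 0.538 and 0.0178 RPKM in control, at 0.0468 in Atg7 KO replicate 2 and at 36.2 to 65.4 in the other knockout libraries. Fip200 KO replicate 3 had Xist at 49.7 RPKM with Chrdl1 at 0.0131, and the part of Xist in the Chrdl1 levels was not tested.

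Thy1 encodes CD90, a surface glycoprotein of fibroblasts, pericytes and lymphocytes that is also found on activated endothelium. It was at 17.7, 11.2 and 2.36 RPKM in control, at 288, 229 and 0.210 in Fip200 KO, at 118, 107 and 207 in Atg5 KO, and at 346, 71.2 and 196 in Atg7 KO libraries. All but Fip200 KO replicate 3 of the knockout libraries, 8 of 9, lay above every control library. That library was below all controls. At 346 RPKM, Thy1 stood at rank 150 of the listed genes, while in Fip200 KO replicate 3 it stood at rank 12524.

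Thy1 was high under each prefix, at up to 288 RPKM in FY, 118 in JG and 346 in Yang knockout libraries. Its log2 fold changes were 2.09 for Fip200 KO, 4.02 for Atg5 KO and 4.32 for Atg7 KO, or 0.98, 4.28 and 3.99 with the prefix as a term. Without Fip200 KO replicate 3 the Fip200 KO value was 4.92.

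**Figure D1:**
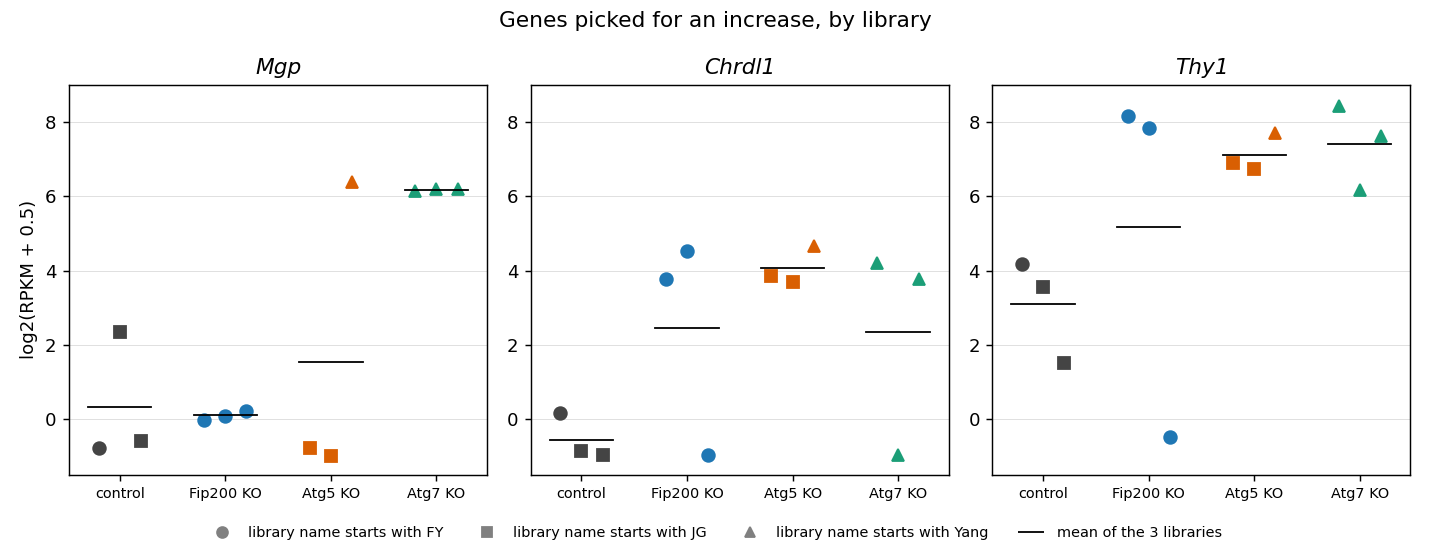
Levels of Mgp, Chrdl1 and Thy1 in the 12 libraries, as log2 of RPKM plus 0.5 on the vertical axis, by group on the horizontal axis, with replicates 1 to 3 from left to right, the marker shape giving the library-name prefix and bars giving means. The 4 Mgp values of 69.7 to 82.7 RPKM are the 4 triangles (prefix Yang), whereas high Chrdl1 and Thy1 occur with every marker shape and drop in Fip200 KO replicate 3, and Chrdl1 also in Atg7 KO replicate 2.

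Acta2 encodes smooth muscle alpha-actin, and Tagln encodes transgelin, an actin-binding protein of smooth muscle. Both were low in control cells. In the Atg5 KO cells both rose against control, and in the Atg7 KO cells Tagln rose, with 2 of the 3 libraries over 28 RPKM. In the Fip200 KO cells neither passed the test.

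Acta2 was at 0.820, 0.444 and 2.91 RPKM in control, at 0.902, 1.97 and 15.2 in Fip200 KO, at 5.13, 3.93 and 3.33 in Atg5 KO, and at 13.2, 1.15 and 8.27 in Atg7 KO libraries. Only the Atg5 KO libraries all lay above the controls, and the means were 1.39 ± 1.33 in control and 4.13 ± 0.921 RPKM in Atg5 KO cells (SD, n = 3). Tagln was at 2.23, 0.454 and 1.60 RPKM in control, at 2.10, 6.36 and 6.06 in Fip200 KO, at 10.3, 5.85 and 6.01 in Atg5 KO, and at 51.1, 2.42 and 28.4 in Atg7 KO libraries. Here 8 of 9 knockout libraries lay above every control library, and Fip200 KO replicate 1 at 2.10 fell within the control range. Even the highest of these levels are small beside those of vimentin and fibronectin.

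The log2 fold change of Tagln was 2.12 in Atg5 KO cells (standard error 0.416, adjusted p = 0.0136 from limma) and 3.22 in Atg7 KO cells (adjusted p = 0.0747, standard error 1.01). The log2 fold change of Acta2 was 1.496 in Atg5 KO cells (standard error 0.461, adjusted p = 0.0499 from limma) and 1.85 in Atg7 KO cells, where it did not pass (95% interval −0.09 to 3.78, adjusted p = 0.162). In Fip200 KO cells the values were 1.23 for Acta2 (adjusted p = 0.525 from limma) and 1.48 for Tagln (adjusted p = 0.242). Genes were called where p, adjusted over all genes tested, did not exceed 0.1 and the log2 fold change was 1 or more in either direction.

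With the prefix as a term in a fit of all 12 libraries none of these calls passed, although the log2 fold changes were of like size or larger and the standard errors wider. In a fit of all 12 libraries without that term the Acta2 and Tagln calls in Atg5 KO cells were already lost. For Atg5 KO, Tagln was at 2.55 (standard error 1.14, adjusted p = 0.239 from limma) and Acta2 at 1.48 (standard error 1.23, adjusted p = 0.519). For Atg7 KO, Tagln was at 3.88 (standard error 1.75, adjusted p = 0.520 from limma), a value linked to control through Atg5 KO replicate 3 alone. Among the JG libraries alone, 2 control and 2 Atg5 KO, Tagln was called (log2 fold change 2.55, adjusted p = 0.0223 from limma) and Acta2 was not (1.48, adjusted p = 0.134). The Acta2 call in Atg5 KO cells was lost without control replicate 1 or 2 and without Atg5 KO replicate 1 or 2 (adjusted p 0.105 to 0.143). The Tagln call in Atg7 KO cells was lost without any 1 library other than Atg7 KO replicate 2 (adjusted p 0.107 to 0.201), and without Atg7 KO replicate 2 Acta2 was also called, at 2.76 (adjusted p = 0.0236 from limma).

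Contractile genes carry CArG boxes, the sites of serum response factor (SRF), which is itself on the list of contractile genes. The windows from 250 bases before to 50 bases after the RefSeq start sites (GRCm38.p6) were therefore read for Acta2, the member called in Atg5 KO cells that has such a window. They were also read for Cnn2 and Srf, the 2 genes of that list other than members that were called in Atg7 KO cells. Of the 10 members, 3 have a window in the table (Acta2, Vim and Twist1). A CArG box is CC, then 6 letters that are each A or T, then GG, searched on both strands, and up to 1 other letter among the 6 was allowed, a rule chosen after the Acta2 window had been read. Matches are in capitals. The windows are chr19:34255324-34255623 on the minus strand for Acta2, chr10:79988350-79988649 on the plus strand for Cnn2 and chr17:46556113-46556412 on the minus strand for Srf, each 5′ to 3′ along the gene.
Acta2: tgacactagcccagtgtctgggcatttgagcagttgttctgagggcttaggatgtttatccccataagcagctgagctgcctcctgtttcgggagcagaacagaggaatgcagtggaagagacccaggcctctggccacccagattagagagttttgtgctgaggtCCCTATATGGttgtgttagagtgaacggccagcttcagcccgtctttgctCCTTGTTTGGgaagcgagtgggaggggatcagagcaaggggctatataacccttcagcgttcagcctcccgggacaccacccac
Cnn2: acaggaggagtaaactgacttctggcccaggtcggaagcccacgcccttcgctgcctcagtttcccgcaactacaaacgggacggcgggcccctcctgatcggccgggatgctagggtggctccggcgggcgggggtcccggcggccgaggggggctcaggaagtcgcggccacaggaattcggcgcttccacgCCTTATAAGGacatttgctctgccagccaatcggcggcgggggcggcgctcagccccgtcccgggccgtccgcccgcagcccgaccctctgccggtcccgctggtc
Srf: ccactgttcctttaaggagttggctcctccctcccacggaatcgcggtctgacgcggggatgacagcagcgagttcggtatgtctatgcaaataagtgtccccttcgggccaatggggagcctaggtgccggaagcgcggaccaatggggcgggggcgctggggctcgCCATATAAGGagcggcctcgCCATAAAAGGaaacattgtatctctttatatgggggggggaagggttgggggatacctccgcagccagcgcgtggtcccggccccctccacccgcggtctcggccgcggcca
Cnn2 has 1 match, starting at −56 from the start site, and Srf has 2, at −82 and −62, all with 6 letters A or T. Acta2 has 2 matches, at −84 and −34, each with 1 other letter. Of 32851 promoter windows of this length, 1.63% hold a box with all 6 letters A or T, and 9.98% one with at most 1 other letter. Among the contractile genes, 16 have a window, of which 3 hold the first kind and 6 either kind. The 6 include Acta2, whose window led to the looser rule. These counts are of genes with a match in any of their windows, whereas the percentages are of single windows, so the 2 are not alike. The windows of Vim and Twist1 hold neither.

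Cdh2 encodes N-cadherin, the adhesion molecule that mesenchymal cells and also endothelial cells carry. It was at 17.7, 24.4 and 21.4 RPKM in control, at 40.0, 51.6 and 20.9 in Fip200 KO, at 28.4, 26.9 and 38.0 in Atg5 KO, and at 37.7, 45.0 and 57.8 in Atg7 KO libraries. Again 8 of 9 knockout libraries lay above every control library, all but Fip200 KO replicate 3. The Atg7 KO mean was 46.8 ± 10.2 RPKM against 21.2 ± 3.34 in control (SD, n = 3).

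The rise of Cdh2 passed in Atg7 KO cells (log2 fold change 1.12, adjusted p = 0.0212 from limma, standard error 0.206). In Atg5 KO cells the log2 fold change of 0.54 had an adjusted p of 0.0595 from limma and was under the fold threshold, and in Fip200 KO cells it was 0.73 (adjusted p = 0.343). Without Fip200 KO replicate 3 the last value was 1.096 and was called (adjusted p = 0.0637 from limma). With the prefix as a term, the Atg7 KO value was 0.55 (standard error 0.576, adjusted p = 0.807 from limma), again through Atg5 KO replicate 3 alone. The Atg5 KO library with the prefix Yang, at 38.0 RPKM, was the highest of its group. Without control replicate 1 or Atg7 KO replicate 3 the Atg7 KO value of Cdh2 was just under the fold threshold, at 0.997 and 0.955.

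Vim and Fn1, for vimentin and fibronectin, were among the most highly expressed genes in all groups. Vim lay between 1164 and 2455 RPKM and at rank 3 to 15 of the listed genes. In control it was at 1694, 1933 and 1489 RPKM. The log2 fold changes against control were −0.16 for Fip200 KO, 0.02 for Atg5 KO and −0.01 for Atg7 KO. The 95% interval in Atg5 KO cells ran from −0.34 to 0.37. The sign of the Vim value turned in Atg5 KO cells with median-of-ratios scaling, to −0.04, and in Atg7 KO cells with the prefix as a term, to 0.25.

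Fn1 was at 477, 808 and 739 RPKM in control and between 164 and 1369 RPKM in knockout libraries. The lowest value was in Fip200 KO replicate 1 and the highest in an Atg7 KO library. All 3 Atg5 KO libraries, at 820 to 1033 RPKM, lay above the controls, but the log2 fold change of 0.48 did not pass (95% interval −0.04 to 0.99, adjusted p = 0.137 from limma). The other values were −0.50 for Fip200 KO and 0.36 for Atg7 KO. The first turned to 0.26 without Fip200 KO replicate 1.

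Snai2, which encodes the transcription factor Slug, a repressor of junction genes, was not higher in any knockout. It was at 6.42, 15.1 and 9.34 RPKM in control and between 3.14 and 11.8 RPKM in the knockout libraries, where 5 of 9 lay below every control library. All 3 Atg5 KO libraries, at 4.88 to 5.94 RPKM, were among these 5. Its log2 fold changes were −0.40 for Fip200 KO, −0.76 for Atg5 KO (adjusted p = 0.0870 from limma, under the fold threshold) and −0.78 for Atg7 KO (adjusted p = 0.210). Without control replicate 1 the Atg5 KO value was −1.04 and was called (adjusted p = 0.0238 from limma). In Fip200 KO cells the sign turned, to 0.16, with the prefix as a term. Twist1, another driver of the transition, was listed at 0 in all 12 libraries, which allows up to 3 reads in each.

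**Figure D2:**
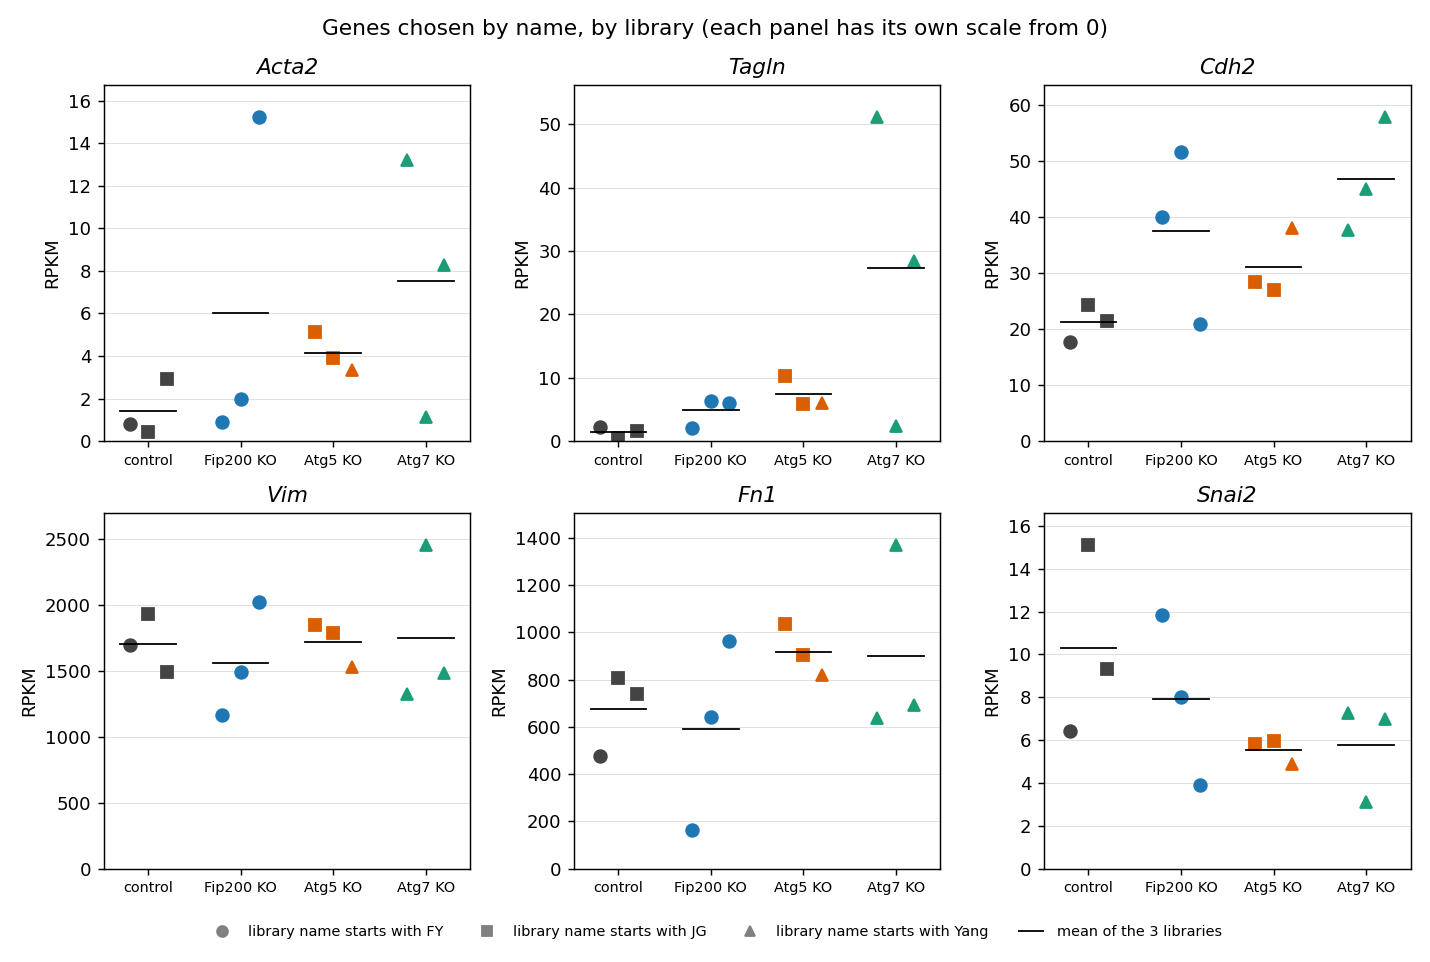
Levels in RPKM (vertical axes from 0, a scale for each gene) of the 6 detected members chosen by name, by group, with replicates 1 to 3 from left to right, marker shapes for the library-name prefix and bars for means. Tagln and Cdh2 lie above the control range in 8 of 9 knockout libraries, while Vim, between 1164 and 2455 RPKM, lies above it in 2 and Snai2, between 3.14 and 15.1 RPKM, in 0 of 9.

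Of the 7 members chosen by name, 0 were called by limma in Fip200 KO cells, with 1 at an unadjusted p under 0.05 (Tagln), where 1.98% of 11803 tested genes were called, 0.347% higher and 1.64% lower. In Atg5 KO cells 2 were called (Acta2 and Tagln, both higher), against 11.2% of 11833 genes, 4.31% higher and 6.94% lower. In Atg7 KO cells 2 were called (Tagln and Cdh2, both higher), against 10.1% of 11784 genes, 3.29% higher and 6.81% lower. With so few members, counts of 2 are given as they are and not read as a share. The 3 comparisons share their control libraries, so calls of Tagln in both are not independent. With the prefix as a term 0 were called in each of the 3 comparisons, and 0 had an unadjusted p under 0.05. Libraries without overlap were frequent over all genes. In Atg5 KO cells every library lay above the controls for 28.4% of genes and below them for 22% of genes, and in Atg7 KO cells for 19.2% and 20.4%, against 11.7% and 12.4% in Fip200 KO cells. Of the 6 tested members, Acta2, Tagln, Cdh2 and Fn1 lay above and Snai2 below without overlap in Atg5 KO, and Tagln and Cdh2 above in Atg7 KO cells.

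**Figure D3:**
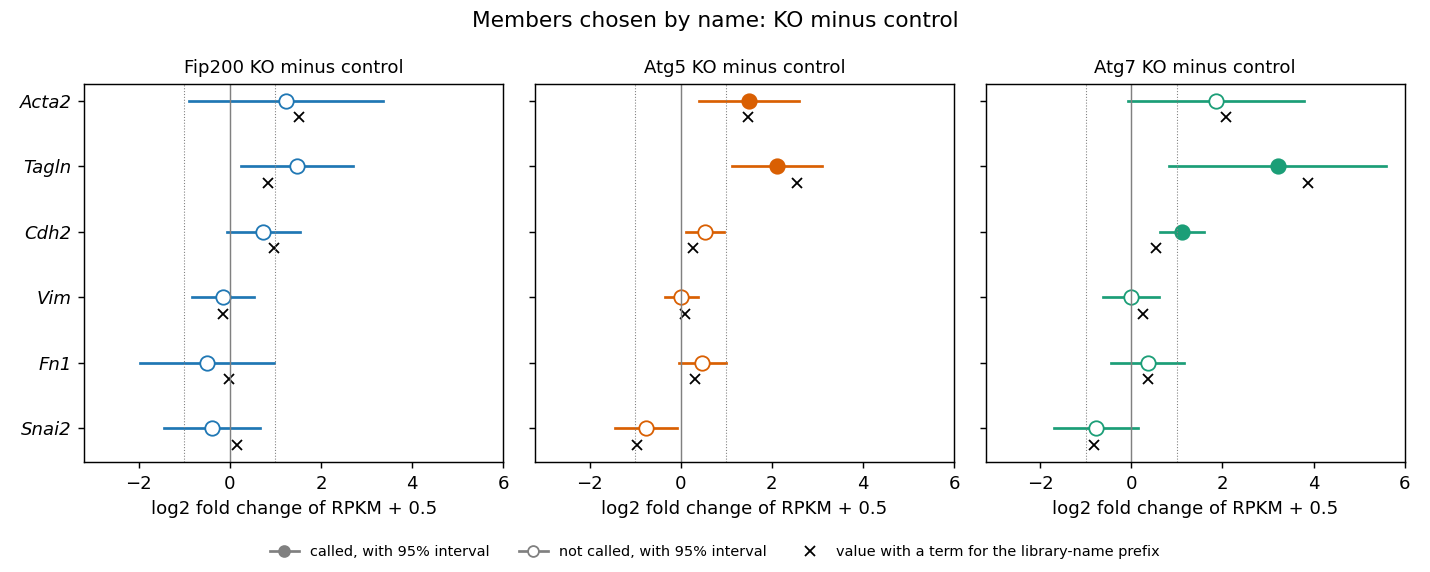
Log2 fold change of RPKM plus 0.5 against control (horizontal axis) for the 6 tested members (vertical axis), with 95% intervals from limma, filled where called, and crosses for the value with a term for the library-name prefix. Filled points are Acta2 (1.496) and Tagln (2.12) in Atg5 KO and Tagln (3.22) and Cdh2 (1.12) in Atg7 KO cells, and the Cdh2 cross in Atg7 KO cells is at 0.55. Dotted lines mark the fold threshold.

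Direct comparisons between knockouts, in 1 fit of the 12 libraries, called 0 of the 6 tested members, with 0 at an unadjusted p under 0.05, where 0 of 12233 genes were called in each of the 3 comparisons by limma. At an unadjusted p under 0.05 there were 927 genes for Atg5 KO against Fip200 KO, 916 for Atg7 KO against Fip200 KO and 562 for Atg7 KO against Atg5 KO. The widest gap among tested members was that of Tagln between Atg7 KO and Fip200 KO cells, at a log2 difference of 1.74 (95% interval −0.17 to 3.65, adjusted p = 0.693 from limma). Between Atg7 KO and Atg5 KO cells the 95% interval of the difference ran from −1.66 to 2.36 for Acta2, from −0.81 to 3.005 for Tagln, from −0.08 to 1.23 for Cdh2 and from −0.61 to 0.57 for Vim. These widths do not show that the knockouts act alike.

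Some members moved together over the 12 libraries, given here as a description, since libraries of a group share their cells and those of a prefix may share more. Thy1, Chrdl1 and Mgp were picked for an increase in these libraries, which by itself raises their r with each other. On log2 of RPKM plus 0.5, Pearson's r was 0.84 between Thy1 and Chrdl1, 0.81 between Acta2 and Tagln, and 0.79 between Vim and Fn1. Between Acta2 and Thy1 r was −0.06, although both lay above every control library in 5 knockout libraries, of 6 for Acta2 and 8 for Thy1. Fip200 KO replicate 3 held the highest Acta2, 15.2 RPKM, and the lowest Thy1, 0.210 RPKM. Mgp had its highest r with Cdh2 (0.60). Thy1 also ran with Cdh2 (0.75) and Chrdl1 with Tagln (0.64). Snai2 ran against Vim (−0.56) and Fn1 (−0.59), and Chrdl1 against Vim (−0.61), the lowest r of all pairs. Among the 11003 genes with a mean of at least 1 RPKM, the gene most like Mgp was Rps15a-ps6 (r = 0.91), a ribosomal protein pseudogene, followed by Atg3 (0.87). The gene most like Chrdl1 was Oard1 (0.97), and then Dnajc8 (0.95), while Thy1 was closest to Gnl1 (0.95) and 2810002D19Rik (0.95), Acta2 to Znhit3 (0.93) and Ddx3x (0.92), and Tagln to Pgd (0.94) and Atm (0.93). Cdh2 was closest to Prelid2 (0.92) and Gm3716 (0.88), Vim to D230025D16Rik (0.93) and Poglut1 (0.91), Fn1 to 5033406O09Rik (0.93) and H2afx (0.92), and Snai2 to Ubap1 (0.94) and Eno2 (0.94). No member was among the closest genes of another.

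**Figure D4:**
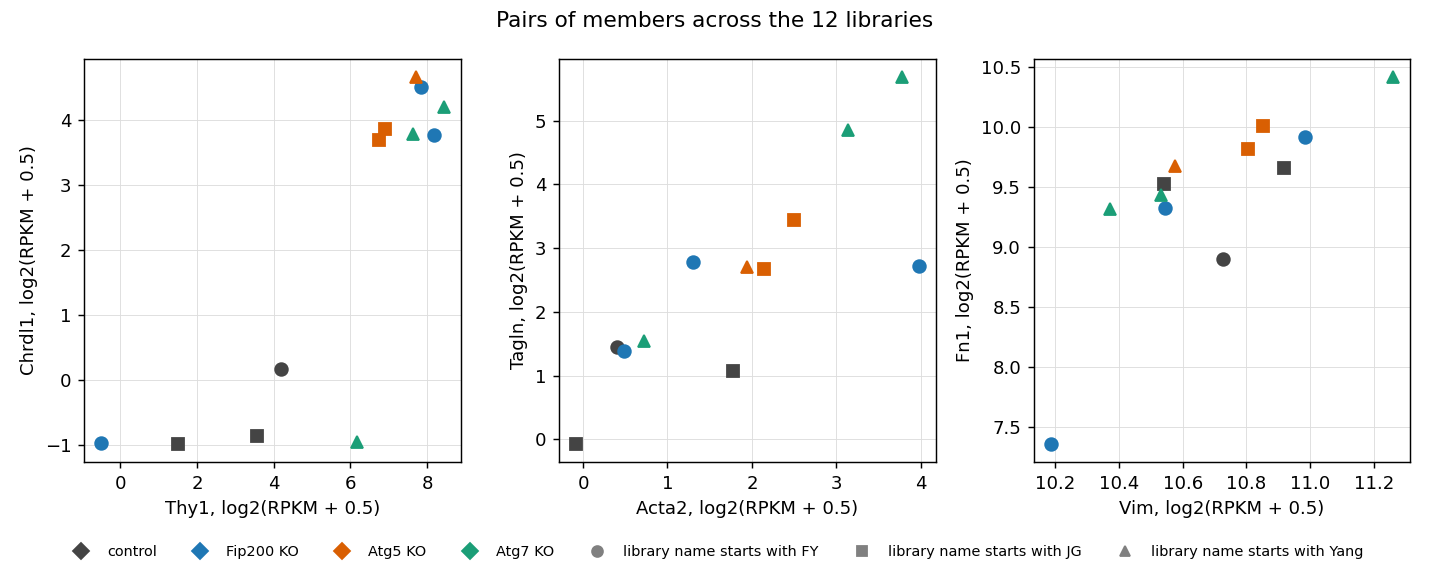
Pairs of members over the 12 libraries, both axes as log2 of RPKM plus 0.5, with colors for groups and marker shapes for the library-name prefix. Thy1 and Chrdl1 (r = 0.84) are both low in Fip200 KO replicate 3 and in control, Acta2 and Tagln (r = 0.81) are both lowest in control replicate 2, and Vim and Fn1 (r = 0.79) show no order by group.

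The other genes of each process were read from lists, leaving the members out, and a list is described by its counts, beside the shares of all genes called. A gene that is high in all 3 libraries of 1 group passes the filter through that group alone. Of the transcription factors of the transition, 10 were tested. In Fip200 KO cells 1 was lower, in Atg5 KO cells 3 and in Atg7 KO cells 3, and 0 were higher in any of them, beside 1.64%, 6.94% and 6.81% of all genes called lower. Twist2, a close relative of Twist1, was at 7.03, 62.7 and 27.4 RPKM in control and at most 0.504 RPKM in all 9 knockout libraries. It was the lowest called gene of the list with Fip200 KO, with Atg5 KO and with Atg7 KO. Of the 9 knockout libraries, however, only 1, in Atg5 KO, reached 0.5 RPKM. Twist2 thus passed the filter through the control libraries, and these calls are not read as support. Sox9 and Foxc2, a cartilage and a lymphatic valve regulator, were the others called lower, both with Atg5 KO and with Atg7 KO, and Sox9 entered the Atg5 KO test through the control libraries alone. The 2 control libraries with the most Twist2 are those with Dcn at 56.9 and 15.2 RPKM, and without control replicate 2 the lower calls on the list were 0, 1 and 1. Here 9 genes were tested in each comparison in place of 10, since Twist2 with Fip200 KO and Atg7 KO and Sox9 with Atg5 KO could then no longer pass the filter, which by itself removes 1 call each.

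Of the contractile genes other than Acta2 and Tagln, 10 were tested. In Fip200 KO and Atg5 KO cells 0 were called by limma in either direction, with 2 and 3 at an unadjusted p under 0.05, and in Atg7 KO cells 2 were higher, beside 3.29% of all genes. Without Atg5 KO replicate 3, 1 was called higher in Atg5 KO cells. The median log2 fold change was 0.35, 0.13 and 0.41, beside medians over all genes of 0.02, 0.06 and −0.01. Cnn2, an actin-binding calponin that is not restricted to muscle, was at 45.0, 45.9 and 32.3 RPKM in control and at 141, 133 and 125 in Atg7 KO libraries (log2 fold change 1.70, adjusted p = 0.00723 from limma). Srf, the gene of serum response factor, was at 6.92, 6.50 and 7.17 RPKM in control and at 20.6, 13.5 and 17.2 in Atg7 KO libraries (log2 fold change 1.24, adjusted p = 0.0145 from limma). Both were also above every control library in Atg5 KO cells, under the fold threshold, with log2 fold changes of 0.79 and 0.77. Of the smooth muscle markers on the list, Cnn1 stayed at most at 0.426 and Des at 0.179 RPKM, both in control replicate 2. Other genes of the list were not near 0. Smtn ran from 24.0 RPKM in control replicate 3 to 70.6 RPKM in Atg5 KO replicate 2. Its log2 fold changes, all under the fold threshold, were 0.78 for Fip200 KO, 0.97 for Atg5 KO and 0.65 for Atg7 KO. The number of calls in Atg7 KO cells was also 2 without control replicate 2 and without Atg7 KO replicate 2. In bulk samples fewer cells of a type and less RNA per cell cannot be told apart, and whether Acta2 and Tagln came from a few cells or from all was not tested.

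Of the mesenchymal and fibroblast genes other than members, 0 of 15 tested were called by limma in Fip200 KO cells (1 at an unadjusted p under 0.05), 1 higher and 1 lower of 16 in Atg5 KO cells, and 3 higher of 15 in Atg7 KO cells. The shares of all genes were 1.98% called in Fip200 KO, 4.31% higher and 6.94% lower in Atg5 KO, and 3.29% higher in Atg7 KO cells. Most of the tested genes lay below 0, 10, 9 and 8 of them, and the median log2 fold changes were −0.27, −0.48 and −0.03, or 0.16, 0.12 and 0.09 without control replicate 2. Without that library 14, 13 and 14 genes were tested, so the latter medians cover another set of genes. Tnc, for the matrix protein tenascin-C, was at 58.0, 40.3 and 18.6 RPKM in control, at 59.2, 298 and 201 in Fip200 KO, at 211, 176 and 248 in Atg5 KO, and at 255, 343 and 150 in Atg7 KO libraries. All 9 knockout libraries lay above the controls, and the log2 fold change was 2.56 in Atg5 KO (adjusted p = 0.00719 from limma) and 2.73 in Atg7 KO cells (adjusted p = 0.0173). S100a4, a calcium-binding protein used as a fibroblast mark, was lower in Atg5 KO cells (−1.09, adjusted p = 0.0958 from limma), with 0 lower calls on the list without control replicate 2 or without Atg5 KO replicate 3. In Atg7 KO cells Ctgf and Col1a2 were the others called higher. Col1a2, at 0.00969 to 0.0202 RPKM in control and 0.756 to 1.54 RPKM in Atg7 KO libraries, entered the test only through the latter and is not read as support. Without Atg7 KO replicate 2 the higher calls were 2, as Col1a2 could then no longer pass the filter. Of the pericyte genes 2 passed the filter, with 0 calls by limma in Fip200 KO cells, where both had an unadjusted p under 0.05 and 1 was called lower without Fip200 KO replicate 3. Anpep, a surface peptidase, was at 4.79, 12.2 and 3.58 RPKM in control, at 0.802, 0.808 and 0.0270 in Atg5 KO and at 0.626, 0.0480 and 0.344 in Atg7 KO libraries. It was called lower in both, while only 2 Atg5 KO libraries and 1 Atg7 KO library reached 0.5 RPKM. The other, Mcam, was at 23.0, 29.2 and 0.960 RPKM in Atg5 KO libraries and was called higher there without Atg5 KO replicate 3.

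Mgp and Chrdl1 share their binding of BMP ligands with the secreted BMP antagonists, of which 7 others were tested. In Fip200 KO cells 0 were called by limma, with 2 at an unadjusted p under 0.05, while Atg5 KO and Atg7 KO cells each had 1 higher and 2 lower. Over all genes the shares called were 1.98% with Fip200 KO, 4.31% higher and 6.94% lower with Atg5 KO, and 3.29% higher and 6.81% lower with Atg7 KO. Grem1, for gremlin-1, was at 28.6, 411 and 143 RPKM in control and at 0.435 to 36.2 RPKM in the knockout libraries, with a log2 fold change of −5.33 in Atg5 KO (adjusted p = 0.0103 from limma) and −5.74 in Atg7 KO cells (adjusted p = 0.0239). Its 2 highest control libraries are again those with Dcn at 56.9 and 15.2 RPKM. Nbl1 was the other gene called lower, in Atg7 KO cells tested through the control libraries alone. Crim1, a transmembrane BMP-binding protein, was higher in Atg5 KO (1.07, adjusted p = 0.0612 from limma) and Atg7 KO cells (1.13, adjusted p = 0.0527). Without control replicate 2 the calls were 0 higher and 1 lower in each of the 2, as they were in Atg5 KO cells without Atg5 KO replicate 3. Without control replicate 2, Nbl1 could no longer pass the filter in Atg7 KO cells.

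Of 24 tested ligands, receptors, SMADs and targets of TGF-beta and BMP signaling, 0 were called by limma in Fip200 KO (7 at an unadjusted p under 0.05), 2 higher and 3 lower in Atg5 KO, and 3 higher and 4 lower in Atg7 KO cells. The shares over all genes were 1.98% called in Fip200 KO, 4.31% higher and 6.94% lower in Atg5 KO, and 3.29% higher and 6.81% lower in Atg7 KO cells. Of these 4 lower genes, Tgfb3, entered the test through the control libraries alone. Id2, a direct BMP target that encodes an inhibitor of helix-loop-helix factors, was the lowest called gene in both, at 30.5, 30.2 and 31.2 RPKM in control, then 7.04, 3.32 and 7.67 in Atg5 KO libraries and 6.10, 4.87 and 6.01 in those of Atg7 KO. Its log2 fold change was −2.33 in Atg5 KO (adjusted p = 0.00478 from limma) and −2.34 in Atg7 KO cells (adjusted p = 0.00226). Id1, another such target, was also called lower in both. Acvrl1, the endothelial BMP9 receptor, had the highest value among called genes in Atg5 KO cells (1.09, adjusted p = 0.0186 from limma), and Tgfb2, a ligand known to start endothelial-mesenchymal transition, in Atg7 KO cells (2.03, adjusted p = 0.0510). Without control replicate 2 the higher calls were 0 and 0 and the lower ones 3 and 3, with Tgfb3 no longer passing the filter in Atg7 KO cells. Without Atg5 KO replicate 3 the higher calls in Atg5 KO cells were 1, and without Fip200 KO replicate 3 there was 1 lower call in Fip200 KO cells.

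**Figure D5:**
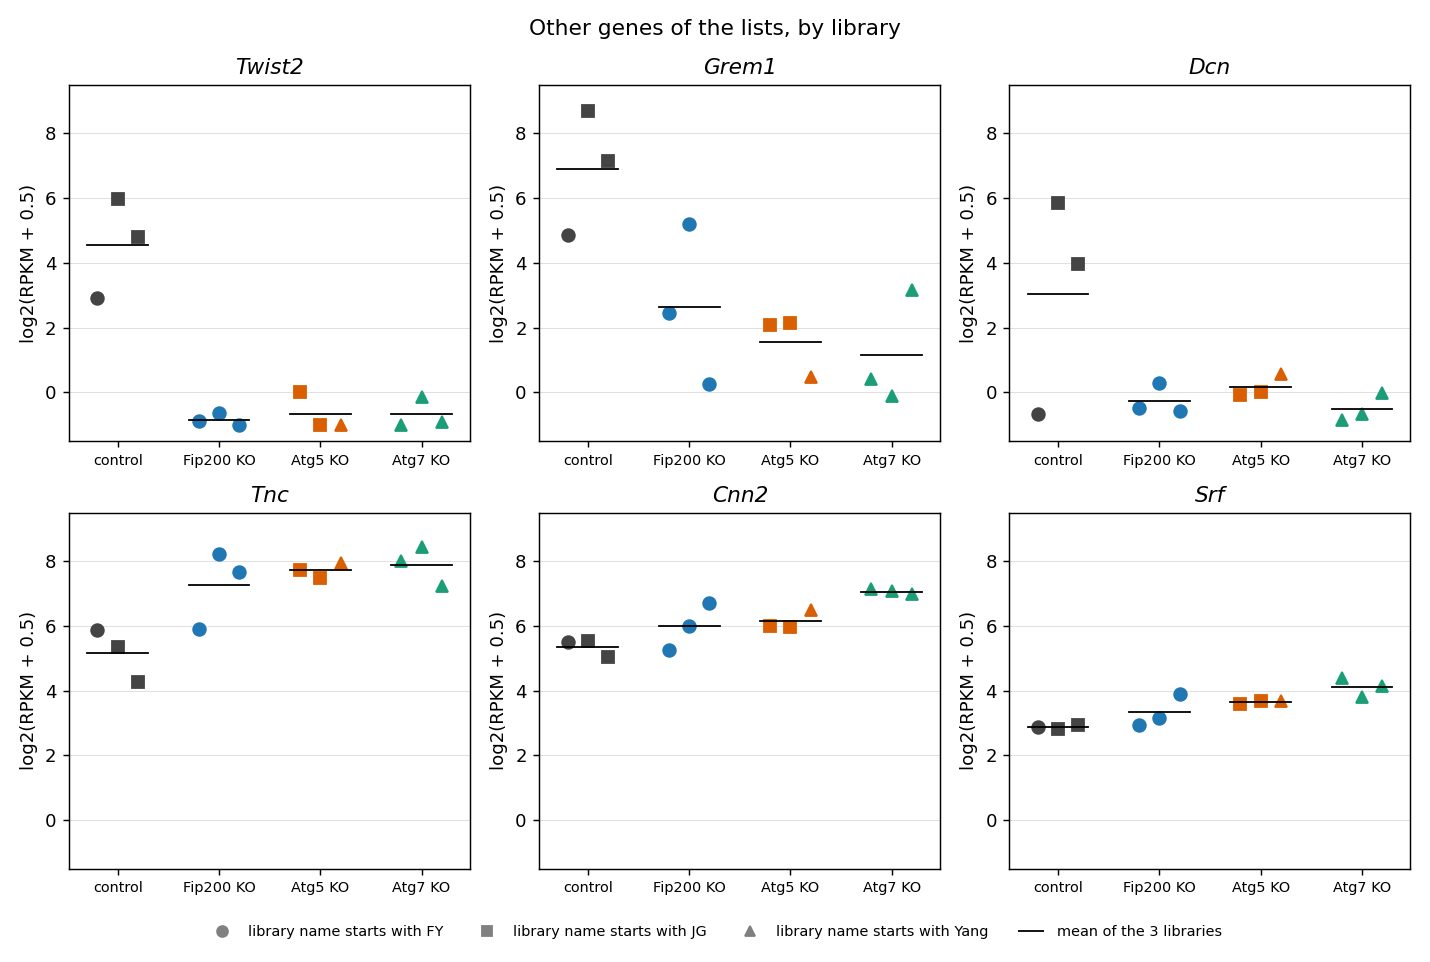
Levels of 6 genes of the lists as log2 of RPKM plus 0.5 (vertical axis), by group, with replicates 1 to 3 from left to right, marker shapes for the library-name prefix and bars for means. Twist2 and Grem1 are highest in control replicates 2 and 3, the libraries in which Dcn is at 56.9 and 15.2 RPKM, whereas Tnc, Cnn2 and Srf are higher in Atg7 KO libraries than in all control libraries.

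Endothelial genes were read beside the members, since they fall when endothelial cells turn mesenchymal. Of 20 tested pan-endothelial markers, 0 were higher and 1 lower in Fip200 KO, 6 higher and 0 lower in Atg5 KO, and 1 higher and 1 lower in Atg7 KO cells, beside 0.347%, 4.31% and 3.29% of all genes called higher and 1.64%, 6.94% and 6.81% called lower. Cldn5, a tight junction protein, had the highest value among called genes in Atg5 KO cells (4.12, adjusted p = 0.0451 from limma) and Robo4 in Atg7 KO cells (1.65, adjusted p = 0.0327), and Flt1, a VEGF receptor, was lower in Fip200 KO (−3.66, adjusted p = 0.0995) and Atg7 KO cells (−2.99, adjusted p = 0.0196). The summed level of the 22 markers was 1752 to 4176 RPKM in control, lowest in control replicate 2, 3135 to 4203 in Fip200 KO, 4141 to 4618 in Atg5 KO and 3335 to 4275 RPKM in Atg7 KO libraries. Without control replicate 2 the higher calls were 0, 1 and 1 and the lower ones 0, 0 and 1. Without Fip200 KO replicate 3 there were 2 higher calls in Fip200 KO cells, and without its replicate 2 the lower call was lost. Of the lymphatic markers, 2 were higher and 1 lower of 10 in Atg5 KO and 1 higher and 1 lower of 9 in Atg7 KO cells, with 0 of 9 in Fip200 KO cells by limma (3 at an unadjusted p under 0.05), to be set beside the same shares of all genes. Without control replicate 2 these became 1 higher and 0 lower in Atg5 KO and 0 higher and 1 lower in Atg7 KO cells, and without Atg7 KO replicate 2 the higher call was lost as well. Without Atg5 KO replicate 3, 1 was higher and 1 lower in Atg5 KO cells, and without Fip200 KO replicate 2, 1 was lower in Fip200 KO cells. Mmrn1 was the highest called gene in Atg5 KO (2.18, adjusted p = 0.0543 from limma), Lyve1 in Atg7 KO cells (1.11, adjusted p = 0.0947), and Foxc2 the lowest called in both. Epithelial and leukocyte markers had 2 or 3 tested genes each, too few to set beside the shares of all genes, and Krt19 in Atg5 KO cells (−2.57, adjusted p = 0.00481 from limma) and Cd68 in Atg5 KO (−2.26, adjusted p = 0.00640) and Atg7 KO cells (−1.70, adjusted p = 0.0798) were lower. The part of the fibroblast-type genes of control replicates 2 and 3 in these counts was not tested.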

How the data were processed

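RNA of 12 libraries, 3 per group, was sequenced from directional libraries. Per the labels and the methods, the authors aligned trimmed reads with TopHat2, counted them on known transcripts and used edgeR. The build, annotation and versions are not given in the sources used here. The authors deposited RPKM values, a unit read from the values, in 3 tables that share the control libraries. Their group means, fold changes and p-values were not used. Whole reads were recovered from the ratios between libraries, for 9 genes with a common factor that made the gene length whole. Of all 14851 genes, 20, Twist1 among them, had no reads. Intervals are those of limma and rest on the spread between libraries. Floors cover counting error only, and a count of 0 allows up to 3 reads.

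Genes with at least 0.5 RPKM in at least 3 fitted libraries were tested on log2(RPKM + 0.5) by limma 3.58.1 in R 4.3.3, with trended empirical Bayes, each knockout against control in 6 libraries and knockouts in 1 fit of 12. The added 0.5 understates changes of low genes. Adjustment followed Benjamini and Hochberg over all genes. The test was checked on simulated data. Genes were called where the adjusted p did not exceed 0.1 and the log2 fold change was 1 or more in either direction. Named genes are the members, the highest and lowest called gene per list and comparison, and the 2 genes most like each member. Other genes were named after their values were seen. The members and lists were chosen with earlier results of these data known. The alternatives were another pseudocount, filter and scaling, all libraries in 1 fit, the replicate number or library-name prefix as a term, and each library left out. Promoter windows came from RefSeq (GRCm38.p6).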

Additional observations from a re-analysis of the deposited data

Results flagged for a closer look

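Mgp was flagged because every Atg7 KO library lay above and every Fip200 KO library below the mean of the control libraries. The values differed by 6.08 on the log2 scale of RPKM plus 0.5, at 69.7 to 73.4 RPKM in Atg7 KO and 0.491 to 0.665 RPKM in Fip200 KO libraries. The difference was not tested, since Mgp was picked for its increase. The control mean of 1.61 RPKM rests on control replicate 2, at 4.59 RPKM, and all Atg7 KO libraries have the prefix Yang and all Fip200 KO libraries the prefix FY, so that the prefix and the knockout cannot be told apart here.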

How the results depend on the processing

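Of the values of single members under the alternatives, 586 stayed the same, 19 lost a call, 3 gained one, 3 moved without a test and 54 turned their sign. For tested members, the same means the same direction and side of the threshold. For Mgp, Thy1 and Chrdl1, and in the FY libraries alone, it means the same direction and a shift under the SD within groups. The cause was not tested for any of these changes.

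Members called were 0 with Fip200 KO, 2 with Atg5 KO and 2 with Atg7 KO. They became 0, 0 and 0 with a term for the library-name prefix, where standard errors were wider and the log2 fold changes of the lost calls were 2.55 for Tagln and 1.48 for Acta2 in Atg5 KO and 3.88 for Tagln and 0.55 for Cdh2 in Atg7 KO cells (2.12, 1.496, 3.22 and 1.12 without the term). The same counts became 0, 0 and 2 with all 12 libraries in 1 fit, where the Acta2 and Tagln calls in Atg5 KO cells were lost, and 1 in Atg7 KO cells with no filter. With 1 library left out they ranged from 0 to 1, 1 to 2 and 0 to 3. Genes called in Fip200 KO cells, 234, became 47 with the prefix, 146 with no filter, 608 with all libraries and 0 to 598 with 1 library left out, 0 both without control replicate 2 (1103 at an unadjusted p under 0.05) and without control replicate 3 (913). In Atg5 KO cells, 1331 became 663 with the prefix and 985 to 1502 with 1 library left out, and in Atg7 KO cells 1191 became 38 and 576 to 1514. Between knockouts, the 0 genes called became 1 for Atg5 KO against Fip200 KO, 2 for Atg7 KO against Fip200 KO and 1 for Atg7 KO against Atg5 KO with the prefix, and 0 to 300, 0 to 402 and 0 to 1 with 1 library left out.

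The replicate numbers do not pair the libraries, since same-numbered control and knockout libraries correlated at −0.217 to 0.079 in their deviations from the group means. With the replicate block, 93, 1322 and 1071 genes and 0, 2 and 2 members were called.

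With the prefix as a term Atg7 KO is linked to control through Atg5 KO replicate 3 alone and Fip200 KO to control replicate 1 alone. Signs that turned were those of Mgp (0.87) and Snai2 (0.16) in Fip200 KO, and of Mgp (−1.97) and Vim (0.25) in Atg7 KO cells. The first 2 values were also those of the FY libraries alone, and with a pseudocount of 0.1 Mgp in Fip200 KO cells was 0.13. For Atg5 KO against Fip200 KO, Mgp turned to −2.64 and Acta2 to −0.045 with the prefix. For Atg7 KO against Fip200 KO, Mgp turned to −2.84, Chrdl1 to 0.10 and Cdh2 to −0.42. For Atg7 KO against Atg5 KO, Mgp turned to −0.20, Thy1 to −0.29, Vim to 0.15, Fn1 to 0.043 and Snai2 to 0.15. Median-of-ratios scaling turned Vim in Atg5 KO cells to −0.039, and Vim and Snai2 to 0.043 for Atg7 KO against Atg5 KO.

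With 1 library left out, signs turned in these ranges. In Fip200 KO cells Fn1 ran from −1.02 to 0.26, Snai2 from −0.74 to 0.008 and Vim from −0.36 to 0.037. Vim ran from −0.076 to 0.11 in Atg5 KO and from −0.28 to 0.17 in Atg7 KO cells. For Atg5 KO against Fip200 KO, Acta2 ran from −0.45 to 1.30, Cdh2 from −0.56 to 0.086, Chrdl1 from −0.07 to 2.67, Mgp from −0.99 to 2.70, Thy1 from −0.90 to 3.44 and Vim from −0.02 to 0.38. For Atg7 KO against Fip200 KO, Acta2 ran from −0.10 to 1.65, Chrdl1 from −1.80 to 1.55, Thy1 from −0.60 to 3.73 and Vim from −0.12 to 0.36. For Atg7 KO against Atg5 KO, Acta2 ran from −0.26 to 1.26, Fn1 from −0.46 to 0.089, Snai2 from −0.21 to 0.34, Thy1 from −0.22 to 0.92 and Vim from −0.29 to 0.15.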
